A study of Mus musculus with 9 samples.

Results

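The 31 genes described here encode enzymes and regulators of cholesterol and fatty acid synthesis. They were taken from a list chosen with earlier results of these data known. All 31 had a probe set assigned to a single gene symbol, among 18193 genes with such a probe set. All 31 lay above the filter on dim genes. The list holds 17 enzymes of cholesterol synthesis, 10 enzymes of fatty acid synthesis, desaturation and elongation, and 4 genes that sense or carry sterols or switch the pathway on. Levels were read from Affymetrix mouse genome arrays, 1 array per sample, from laser-microdissected optic cup of mouse embryos at E11.5. The fissure group took in cup cells near the edge of the optic fissure, counted in cell diameters from it, and the nasal and temporal groups came from the centre of each side of the cup. Each region had 3 arrays, lettered A, B and C and described as biological replicates. The labels give no strain, genotype or treatment for any group, and the sources used here do not say whether embryos were pooled. Because the labels do not tie a letter to an embryo, the p-values speak only of the spread among these 9 samples, which may be technical.

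Cholesterol is built from acetyl-CoA through mevalonate, isoprenoid units, squalene and lanosterol. Fatty acids start from the same precursor, are assembled into palmitate and are then elongated and desaturated. Both branches are switched on by the SREBP transcription factors, encoded by Srebf1 and Srebf2, which are held in the endoplasmic reticulum by Insig proteins while sterols are plentiful and released for processing when sterols run low. In the embryonic eye and brain, cholesterol is made locally, serves growing membranes and is attached to Hedgehog proteins.

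SREBPs bind sterol regulatory elements and commonly act together with NF-Y, which binds the CCAAT box. The windows upstream of transcription starts were therefore searched on both strands for TCACNCCAC, a form of the sterol regulatory element, and for CCAAT. The 180 bases before the start are printed for Hmgcs1, the member whose window held the sterol element, and for 5 of the 6 members lower in the fissure that had a window. The remaining gene of these 6, Insig1, is not printed because its CCAAT match lies at -216 to -212 from the start, outside the 180 bases. Capitals mark TCACNCCAC and CCAAT, the latter read as ATTGG where it lies on the other strand, and no marked match overlapped another motif searched. Sequences run 5′ to 3′ and come from RefSeq, build GRCm38.p6.
Hmgcs1: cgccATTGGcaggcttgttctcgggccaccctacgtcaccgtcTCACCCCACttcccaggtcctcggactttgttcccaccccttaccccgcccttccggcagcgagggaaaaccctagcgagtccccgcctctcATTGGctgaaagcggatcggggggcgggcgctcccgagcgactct
Idi1: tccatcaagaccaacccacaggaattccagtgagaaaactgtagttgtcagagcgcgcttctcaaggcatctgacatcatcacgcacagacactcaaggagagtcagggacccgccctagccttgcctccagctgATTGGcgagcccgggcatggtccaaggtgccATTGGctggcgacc
Cyp51: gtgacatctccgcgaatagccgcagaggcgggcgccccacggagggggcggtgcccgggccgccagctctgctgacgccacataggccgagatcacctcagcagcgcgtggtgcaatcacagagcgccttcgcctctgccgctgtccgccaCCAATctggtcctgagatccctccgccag
Msmo1: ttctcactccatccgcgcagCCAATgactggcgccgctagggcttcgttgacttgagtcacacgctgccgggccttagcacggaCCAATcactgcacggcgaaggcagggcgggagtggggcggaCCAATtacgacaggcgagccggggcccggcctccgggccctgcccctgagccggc
Nsdhl: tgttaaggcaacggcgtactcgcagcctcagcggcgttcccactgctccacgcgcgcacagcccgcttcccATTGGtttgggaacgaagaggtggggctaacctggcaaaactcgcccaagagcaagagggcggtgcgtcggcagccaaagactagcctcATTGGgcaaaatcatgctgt
Elovl5: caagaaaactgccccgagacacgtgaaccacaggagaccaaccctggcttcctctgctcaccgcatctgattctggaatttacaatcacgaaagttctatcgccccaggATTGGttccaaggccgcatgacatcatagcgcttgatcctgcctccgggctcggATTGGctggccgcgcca
The Hmgcs1 window is chr13:119690171-119690350 on the plus strand. The Idi1 window is chr13:8885426-8885605 on the plus strand. The Cyp51 window is chr5:4104698-4104877 on the minus strand. The Msmo1 window is chr8:64733579-64733758 on the minus strand. The Nsdhl window is chrX:72918341-72918520 on the plus strand. The Elovl5 window is chr9:77917185-77917364 on the plus strand. In the 250 bases before the start, CCAAT was present in 33.8% of 32851 windows in the RefSeq table and in 40.4% of the 10335 tested genes that had a window. It was present in 20 of the 24 members with a window, including all 14 cholesterol synthesis enzymes among them. TCACNCCAC was found in 1 of the 24 members, Hmgcs1, and in 1.27% of tested genes (1.05% of windows). The Sp1 box GGGCGG was found in 19 of 24 members and 63.3% of tested genes (32.7% of windows), and the E-box CACGTG in 5 of 24 and 9.78% (6.02% of windows). These matches describe letters in the windows and were not tested.

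The question here was whether the fissure margin differs from the nasal and temporal cup in lipid synthesis genes. Lower levels in the fissure were seen in 9 of the 31 genes at an adjusted p below 0.05, and 0 were higher. They were Idi1, Fdps, Sqle, Cyp51, Msmo1, Nsdhl, Insig1, Scd1 and Elovl5. Among all 12770 tested genes, 8.60% passed in this comparison, 2.88% lower and 5.72% higher in the fissure. Counts and adjusted p-values come from limma on log2(intensity + 16), adjusted over all tested genes. On that scale changes of dim genes are understated. The median change of the 31 genes was -0.47, against 0.04 over all tested genes, and 26 of the 31 changes were below 0, against 44.0% of tested genes. On 16 of the 31 genes all 3 fissure arrays lay below all 6 other arrays, which was so for 5.76% of tested genes. None of the 31 had all 3 fissure arrays above the others, against 8.41% of tested genes. Since the list was chosen with earlier results of these data known, these shares describe it and are no independent support.

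With the letter as a block, 17 of the 31 genes were lower and 0 higher, where 6.01% of tested genes were lower and 11.0% higher. The 8 added were Hmgcs1, Fdft1, Lss, Hsd17b7, Sc5d, Stard4, Scd2 and Elovl6. Within letters A, B and C, 25, 29 and 24 of the 31 genes were lower in the fissure than in the mean of the nasal and temporal arrays of that letter. The median differences were -0.42, -0.45 and -0.37, against 0.09, -0.0011 and 0.06 over all tested genes. In 21 of 31 genes the fissure was lower within all 3 letters, against 20.1% of tested genes. The plot of the members on the 9 arrays shows the fissure points to the left of the others from Idi1 to Cyp51 and mixed with them for such genes as Mvk and Ebp.

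**Figure D1:**
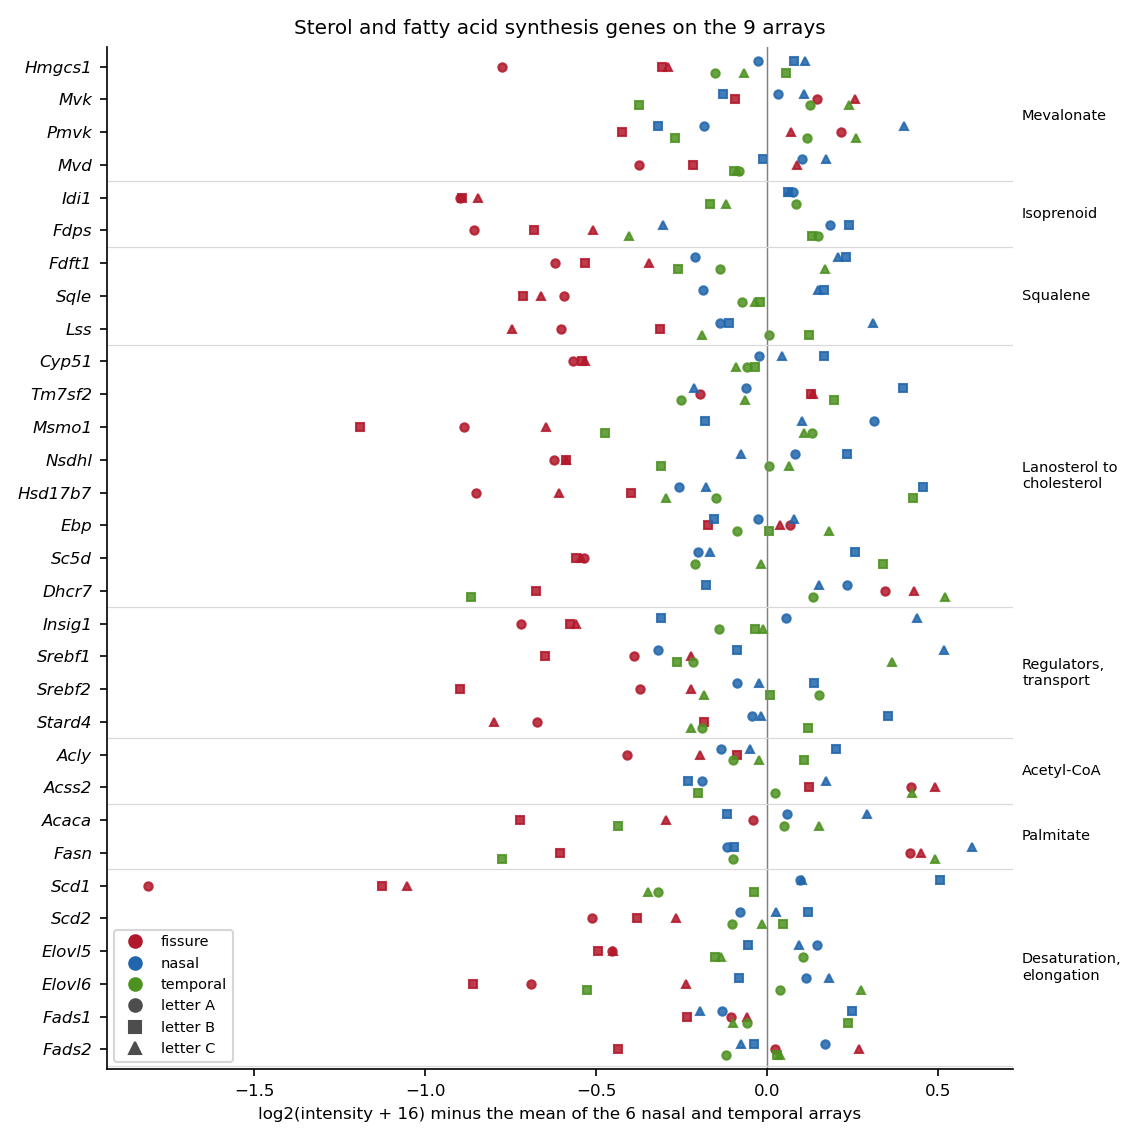
Each row is a gene, grouped by step of the pathway, and each point an array, plotted as log2(intensity + 16) minus the mean of the 6 nasal and temporal arrays for that gene. Colours are regions and shapes are letters. Fissure points lie left of all others in 16 of 31 genes.

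Other measures also moved with the fissure. For Gapdh, the 3-prime signal over the 5-prime signal, a measure of RNA integrity and labelling, was 8.12, 4.93 and 15.0 on fissure arrays A, B and C, and 4.46 to 8.77 on the other arrays. The mean poly-A spike signal, from transcripts added during labelling, was 160.9, 219.1 and 371.7 on fissure arrays A, B and C. It was 102.4, 132.7 and 200.2 on nasal and 83.8, 115.7 and 180.6 on temporal arrays. Within every letter the fissure array was the highest in both measures, narrowly so for the Gapdh ratio in letter B. With the Gapdh ratio as a covariate 10 of the 31 genes were lower in the fissure. With the spike as a covariate 2 were, Idi1 and Scd1, and the median change of the 31 was -0.49. Without fissure array A the count was 3 and without fissure array C it was 4, with medians of -0.47 each. On the first principal component fissure array B lay at -9.40, and fissure arrays A and C at -38.6 and -43.1. Without it 8 genes were lower, and without all 3 arrays of letter B 9 were lower.

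Markers of other cells differed between the same captures. For the counts of higher and lower markers given here, the shares over all tested genes were 5.72% higher and 2.88% lower. Summed intensity of 15 macrophage and leukocyte markers was 3020.3 to 3680.8 in the fissure, 572.2 to 826.8 in nasal and 451.7 to 713.3 in temporal arrays. All 14 that were tested were higher, and Fcer1g was not above the filter. Outside the fissure C1qa, C1qc and Aif1 read at most 4.6, 6.8 and 9.4, below the filter level of 15.7 to 17.5. They entered the test only through the fissure arrays, and Mrc1 and Lyz2 also needed those arrays to enter. For such genes the direction was largely set by the filter, so the count is no support for a rise. Counts of the other marker lists may hold such genes too. The sum of 12 lens markers ran from 2054 to 3333.7, 477.1 to 549 and 539 to 1055.8. Of 8 tested, 5 were higher and 1 lower, with Cryba4, Mip, Bfsp1 and Foxe3 not above the filter. The lower 1, Bfsp2, read 3 to 7.2 in the fissure and entered only through the other regions. Crybb1, which was higher, needed fissure arrays to enter. For 13 mesenchyme markers the sums were 1382.1 to 2965, 880.6 to 1483.2 and 732 to 1586.5, with 5 higher and 2 lower. The 10 neural retina progenitor markers, all above the filter, summed to 8320.1 to 8971.8, 12498 to 15343 and 13586 to 14997, with 4 lower and 0 higher. Pigment epithelium markers summed to 11528 to 13439, 13315 to 15525 and 12397 to 15479 over 10 genes, with 5 lower and 1 higher. Surface ectoderm markers summed to 510.1 to 571.1, 1236.1 to 1590.2 and 932.5 to 1351.8 over 11 genes, with 4 of 9 tested lower and 1 higher, and with Krt14 and Trp63 not above the filter. Endothelial markers (440 to 901.1, 386.9 to 591 and 464.1 to 680.8 over 10 genes, Pecam1 and Tie1 not above the filter) and erythroid markers (13388 to 18054, 9514.9 to 14869 and 11589 to 13401 over 6 genes) had 0 of 8 and 0 of 6 past the limma threshold. At an unadjusted p below 0.05 there were 2 and 4, against 22.1% of tested genes. In the blocked fit 1 and 3 were higher, against 11.0% of tested genes. The part of cell mixture in the lipid gene values was not tested. In such captures fewer cells of a type and less RNA per cell cannot be told apart.

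The pathway opens with the mevalonate enzymes. Hmgcs1 encodes the synthase that joins acetyl-CoA units into HMG-CoA. It read 3847.5, 5336.8 and 5401.2 on fissure arrays A, B and C, 6486.4, 6972.9 and 7133.3 on nasal and 5938.3, 6859.3 and 6301.9 on temporal arrays. All 3 fissure values lay below the other 6. The change was -0.46 (SE 0.15, adjusted p = 0.0815, and 0.0244 in the blocked fit). Its 4 other probe sets above the filter also had every fissure value below the rest, with changes from -0.48 to -0.82. Mvk, Pmvk and Mvd, the 2 kinases and the decarboxylase that turn mevalonate into isopentenyl diphosphate, did not pass. Their changes were 0.10 (95% interval -0.26 to 0.46), -0.05 (-0.50 to 0.41) and -0.17 (-0.47 to 0.13), and their fissure arrays overlapped the others. The intervals of Pmvk and Mvd include a fall as large as that of Hmgcs1, and that of Mvk does not.

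Both isoprenoid genes fell, where 2.88% of tested genes fell. Idi1, the isomerase that makes the second isoprenoid building block, read 1240.1, 1244.8 and 1286.9 in the fissure, 2454.1, 2428.1 and 2431.2 in nasal and 2468.3, 2068.9 and 2138.1 in temporal cup. The fissure values lay close together and far below the rest. The change was -0.88 (SE 0.12, adjusted p = 0.000918), or 54.4% of the nasal and temporal level on the shifted scale. A second Idi1 probe set changed by -0.69, again with no overlap. Fdps, which makes farnesyl diphosphate, read 77.3, 89.3 and 102.6 in the fissure, 176, 183.6 and 120.7 in nasal and 171.4, 169.1 and 111.6 in temporal cup. On the nasal and temporal side the letter C arrays were the lowest. Within letter C the Fdps difference was -0.16, against -1.02 and -0.87 within letters A and B. Its overall change was -0.68 (SE 0.18, adjusted p = 0.0380), and the adjusted p was above 0.05 when any of the 3 fissure arrays was left out.

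At the squalene step, Sqle fell. It encodes squalene epoxidase, which adds the oxygen that starts ring closure. Its intensities were 998.6, 918.3 and 951.9 in the fissure, 1330, 1703.3 and 1681.3 in nasal and 1439.2, 1495.2 and 1478.5 in temporal cup. No fissure value reached the lowest of the others. The change was -0.66 (SE 0.13, adjusted p = 0.00882). Fdft1, squalene synthase, and Lss, which closes the ring to lanosterol, changed by -0.50 (adjusted p = 0.0777, and 0.0220 with the block) and -0.55 (adjusted p = 0.0546, and 0.0337 with the block). In both, all 3 fissure arrays lay below the other 6. Fdft1 is represented by a probe set of the x type and Lss by 1 of the s type, which may also bind related transcripts. Another Fdft1 probe set, of the plain type, changed by -0.80, also without overlap. The plain Lss probe set above the filter changed by -0.35, and its fissure values of 41.6 to 66.5 overlapped the 56.7 to 81.5 of the other arrays.

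Among the 8 enzymes from lanosterol to cholesterol, 3 fell and 5 did not pass, where 2.88% of tested genes fell. Cyp51, the lanosterol demethylase, read 353.7, 360.7 and 362.3 in the fissure, 522.4, 598.3 and 548.1 in nasal and 509.8, 519 and 498.5 in temporal cup. The fissure arrays differed by few units among themselves and lay below all others. The change was -0.55 (SE 0.12, adjusted p = 0.0146), and the 2 other Cyp51 probe sets changed by -0.47 without overlap and by -0.53 with overlap. Msmo1, the sterol methyl oxidase that follows, read 450.7, 361.3 and 534.8 against 1054.3, 744.3 and 909.6 in nasal and 928.5, 604.8 and 912.8 in temporal cup. In every region the letter B array was the lowest for Msmo1, and within each letter the fissure was lowest. It changed by -0.91 (SE 0.19, adjusted p = 0.0112), to 53.3% of the nasal and temporal level on the shifted scale, and a dimmer probe set changed by -0.74 without overlap. Nsdhl, the dehydrogenase of the same demethylation complex, read 338.8, 348 and 347.5 against 562.6, 627.7 and 502.3 in nasal and 533.4, 425.3 and 555.8 in temporal cup. The fissure again lay below every other array, and the change was -0.60 (SE 0.14, adjusted p = 0.0193). Msmo1 had an adjusted p above 0.05 without fissure array A, and Cyp51 and Nsdhl without fissure array A or C.

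The other 5 enzymes of this stretch divided. Hsd17b7, the ketoreductase of the demethylation complex, changed by -0.62 (adjusted p = 0.0992, and 0.00766 with the block) on a probe set of the x type. Its 3 other probe sets above the filter changed by -0.85, -0.23 and -0.50, and in each the fissure overlapped the other arrays. Sc5d, a desaturase late in the pathway, changed by -0.55 (adjusted p = 0.0602, and 0.0165 with the block). Its fissure arrays read 112.5, 110.3 and 111.6 and the other arrays 144.9 to 219.8. The 2 other Sc5d probe sets changed by -0.58 without overlap and by -0.38 with overlap. Tm7sf2, a sterol reductase, Ebp, a sterol isomerase, and Dhcr7, the reductase of the last step, overlapped between regions. Tm7sf2 changed by 0.02 (95% interval -0.36 to 0.40), Ebp by -0.02 (-0.31 to 0.27) and Dhcr7 by 0.03 (-0.65 to 0.71). The Ebp interval leaves out a fall of the size seen in Cyp51. For Dhcr7 the interval is wide, since its letter B arrays read 116.8, 171.4 and 100.3 and the others 217 to 288.3.

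Of the 4 genes of sterol sensing and transport, 1 fell, where 2.88% of tested genes fell. Insig1, which retains the SREBP complex in the endoplasmic reticulum and is itself a target of SREBP, read 137.5, 153.5 and 155.5 in the fissure, 246.5, 187.9 and 326.5 in nasal and 213.4, 230.7 and 234.7 in temporal cup. The fissure values lay below all others, and nasal arrays were spread widely. The change was -0.62 (SE 0.16, adjusted p = 0.0379), with the adjusted p above 0.05 when any of the 3 fissure arrays was left out. Stard4, a carrier of cholesterol between membranes, read 165.7, 238.8 and 150.3 against 264.7, 354.2 and 269.7 in nasal and 237.5, 298.7 and 232.2 in temporal cup. Only fissure array B reached into the temporal range. Stard4 changed by -0.55 (SE 0.17, adjusted p = 0.0774, and 0.00717 with the block), and its 2 other probe sets, which did not overlap, by -0.48 and -0.63.

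The SREBP genes themselves did not pass. Srebf2, the factor that mainly drives cholesterol synthesis, read 79.3, 50.1 and 89.6 in the fissure, 99.9, 119.4 and 105.1 in nasal and 120.8, 107.9 and 92.5 in temporal cup. Fissure values lay below the others, narrowly on array C. The change was -0.50 (SE 0.17, adjusted p = 0.0972, and 0.0626 with the block), and a dimmer probe set changed by -0.05 and overlapped. Srebf1, the factor that mainly drives fatty acid synthesis, changed by -0.42 (95% interval -0.88 to 0.04, adjusted p = 0.275, and 0.0526 with the block).

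Acly and Acss2, which supply acetyl-CoA from citrate and from acetate, and Acaca and Fasn, which carry out the assembly of palmitate, did not pass. Acly changed by -0.23 (95% interval -0.54 to 0.07) and Acaca by -0.35 (-0.77 to 0.06). Acss2 changed by 0.35 (-0.03 to 0.72, adjusted p = 0.273), and its other probe set above the filter by 0.43. Fasn, the palmitate synthase, read 1050.6, 508.6 and 1073.7 in the fissure, 719.3, 730.9 and 1192.8 in nasal and 728.1, 449.9 and 1104.9 in temporal cup. The letter C array was the highest in each region and the regions overlapped, with a change of 0.09 (-0.59 to 0.76).

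Desaturation and elongation genes held the largest change of the 31. Scd1, stearoyl-CoA desaturase, which puts the first double bond into saturated fatty acids, read 183.9, 305.4 and 322 in the fissure, 733.7, 980 and 737.6 in nasal and 546.9, 667.3 and 534.6 in temporal cup. Every fissure value was below every other value, and the nasal values lay above the temporal ones. Scd1 changed by -1.33 (SE 0.19, adjusted p = 0.00111), to 39.8% of the nasal and temporal level on the shifted scale. A dimmer probe set of Scd1 changed by -0.50 and overlapped. Scd2, its paralog, read 4693.2, 5143.4 and 5565.5 in the fissure, 6340.9, 7274.1 and 6817.5 in nasal and 6238.7, 6921.8 and 6626.8 in temporal cup. These too did not overlap, with a change of -0.39 (SE 0.13, adjusted p = 0.0884, and 0.0321 with the block). The 2 other Scd2 probe sets changed by -0.66 and -1.17, the latter with arrays of every region overlapping.

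Elovl5, an elongase of polyunsaturated fatty acids, read 2729.3, 2649.8 and 2733.7 in the fissure, 4140.6, 3602.3 and 3990.9 in nasal and 4023.3, 3364.4 and 3407.4 in temporal cup. On this probe set, of the x type, fissure arrays lay below all others. The change was -0.47 (SE 0.13, adjusted p = 0.0428). The other Elovl5 probe set, of the plain type, changed by -0.38, and its fissure range of 1526.7 to 2068.9 overlapped the other arrays, which began at 2013.3. With the mean of all probe sets Elovl5 did not pass, nor did it when any of the 3 fissure arrays was left out or with the spike as a covariate (adjusted p = 0.320). Elovl6, the elongase that extends palmitate to stearate, changed by -0.60 (adjusted p = 0.0920, and 0.0111 with the block), and its 2 other probe sets by -0.91 and -0.66 without overlap. Fads1 and Fads2, the desaturases of polyunsaturated fatty acids, changed by -0.13 (95% interval -0.46 to 0.19) and -0.05 (-0.41 to 0.31).

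**Figure D2:**
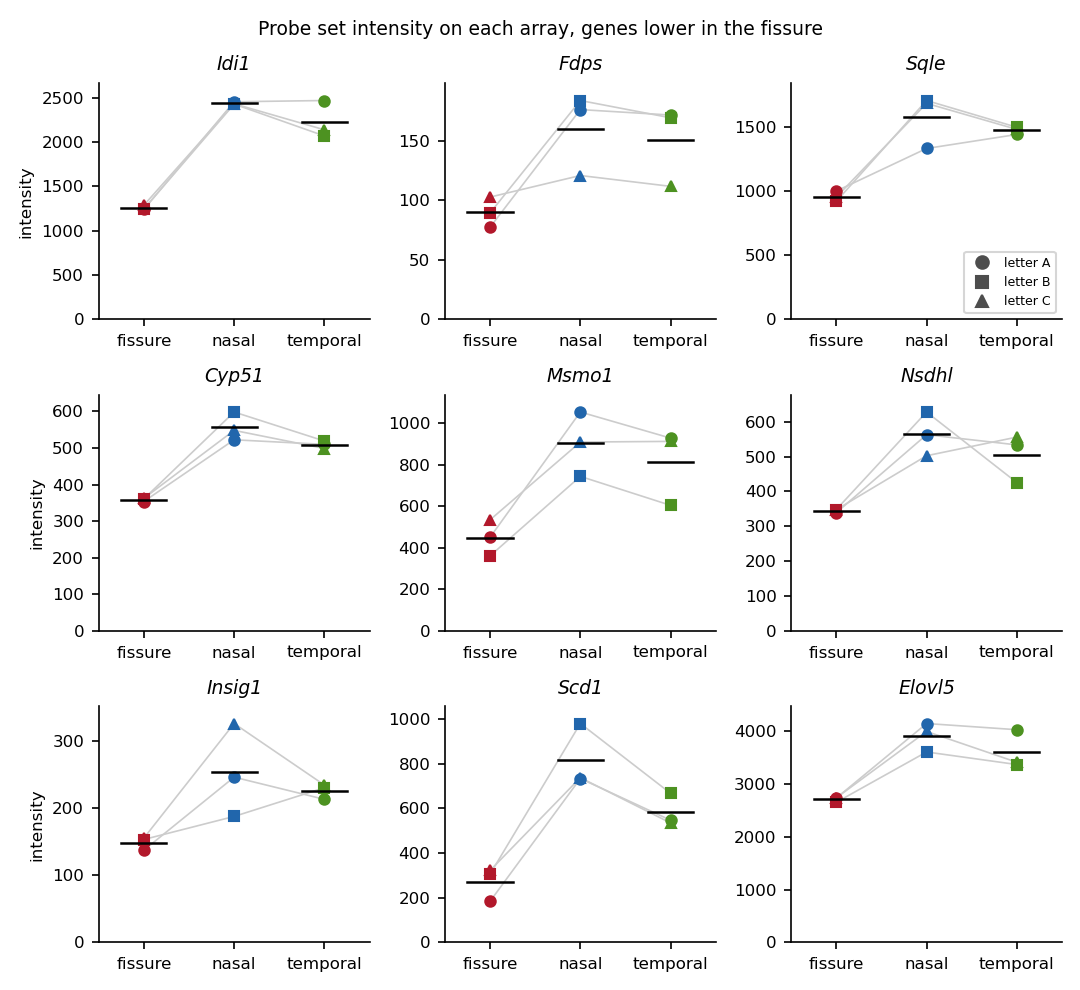
Deposited intensity (linear axis from 0) of the 9 genes that were lower in the fissure, by region, with black bars at the mean of 3 arrays and grey lines joining arrays of the same letter. In each panel the 3 fissure arrays lie below the other 6.

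Beyond the probe set used for each gene, the 31 genes had 41 other probe sets, of which 34 from 21 genes were above the filter. Changes below 0 were found in 31 of these 34, and 33 of 34 had the sign of the probe set used. The exception was the second probe set of Mvd, at 0.19. In 14 of the 34 all fissure arrays lay below the other 6. These probe sets read the same RNA samples and share some sequence targets, so they are not further replicates. Shares over the other probe sets of all tested genes were not computed. The counts out of 34 therefore have no baseline and are no added support. Of the probe sets used for the 31 genes, 4 were of the x type, 2 of the s type and 4 of the a type, the last designed against several transcripts of a gene.

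The fissure was then set against each side of the cup. These comparisons share the fissure arrays and are given side by side. Against nasal cup, 6 of the 31 genes were lower and 0 higher (Idi1, Sqle, Cyp51, Msmo1, Nsdhl and Scd1), where 6.37% of tested genes passed, 1.97% lower and 4.41% higher. Against temporal cup, 3 were lower and 0 higher (Idi1, Sqle and Scd1), where 5.36% passed, 1.90% lower and 3.47% higher. In the blocked fit 15 and 9 were lower and 0 higher, against 4.19% and 4.37% of tested genes lower and 8.28% and 7.70% higher. Median changes of the 31 were -0.51 and -0.41. Idi1 changed by -0.95 and -0.81 (SE 0.14, adjusted p = 0.00207 and 0.00553), Scd1 by -1.57 and -1.10 (SE 0.22, adjusted p = 0.00142 and 0.0130) and Sqle by -0.70 and -0.61 (SE 0.15, adjusted p = 0.0180 and 0.0371). Msmo1 changed by -0.99 against nasal and -0.83 against temporal cup (SE 0.22, adjusted p = 0.0203 and 0.0508, the latter 0.00399 with the block). Cyp51 changed by -0.61 and -0.49 (adjusted p = 0.0222 and 0.0680, the latter 0.0281 with the block), and Nsdhl by -0.68 and -0.52 (adjusted p = 0.0263 and 0.0916, the latter 0.0520 with the block). Leaving out fissure array A took the counts to 2 and 1. The count against nasal cup was 3 without fissure array C or nasal array A, 4 without nasal array B or C and 8 without fissure array B. Against temporal cup it was 2 without fissure array B or C, nasal array C or any temporal array.

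**Figure D3:**
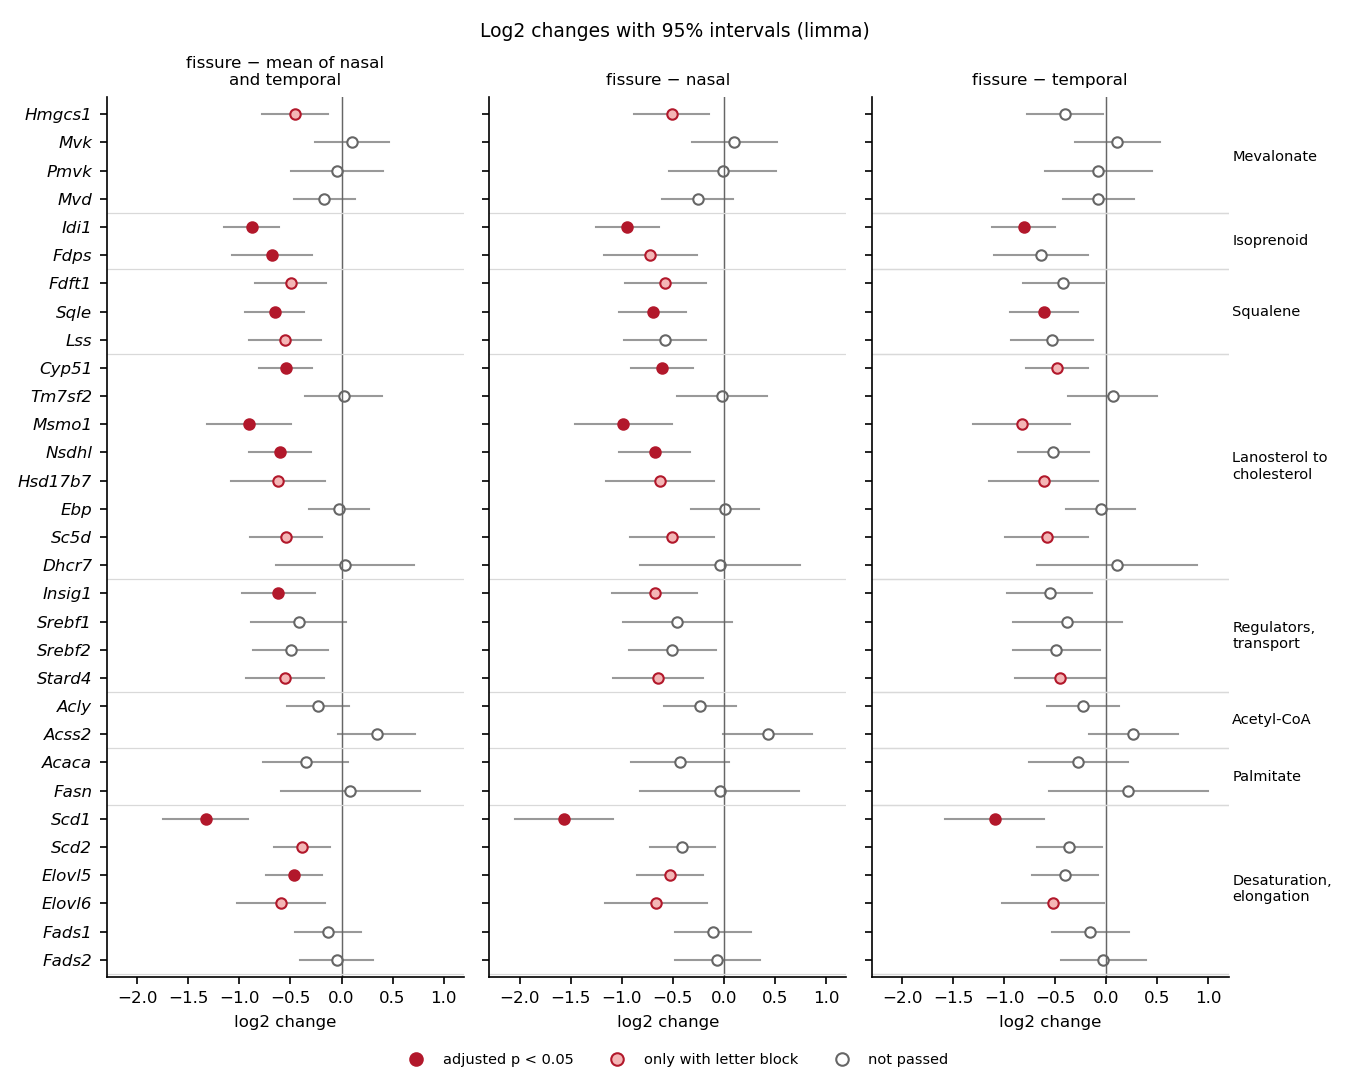
Log2 change of each of the 31 genes with its 95% interval from limma, for the fissure set against both sides of the cup together, against nasal and against temporal cup. Filled points passed at an adjusted p below 0.05, pale points passed only with the letter as a block, and open points did not pass. Idi1, Sqle and Scd1 are filled in all 3 panels.

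Between nasal and temporal cup, 0 of the 31 genes passed in limma, with and without the block, and 0 had an unadjusted p below 0.05. In this comparison 0.0470% of tested genes passed, 0.0235% in each direction (0.0705% lower and 0.0626% higher in nasal cup in the blocked fit), and 2.91% had an unadjusted p below 0.05. Changes of the 31 genes ran from -0.16 to 0.47 with a median of 0.09. The largest was that of Scd1, at 817.1 ± 141.1 in nasal and 582.9 ± 73.3 in temporal cup (SD, n = 3 each). Its change was 0.47 (95% interval -0.01 to 0.95, unadjusted p = 0.0547, adjusted p = 1 in limma). For Idi1 the interval of the nasal and temporal difference was -0.17 to 0.44 and for Msmo1 -0.32 to 0.63.

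Other lipid genes were described from 6 further lists. Of 4 tested genes of the cholesterol pathway outside the 31, 0 passed in limma (0 at an unadjusted p below 0.05, median -0.09). Of 12 genes of sterol sensing and SREBP processing, 0 passed in limma. Of these, 3 had an unadjusted p below 0.05, against 22.1% of tested genes. In the blocked fit 1 was lower, against 6.01% of tested genes, and the median was -0.11. Scap, the escort of SREBP, changed by 0.48 (adjusted p = 0.237), and Erlin2, Ubxn1 and Tmem97 by 0.36, 0.34 and -0.44 (adjusted p = 0.175, 0.135 and 0.180). Among 13 genes of sterol export, storage and transport, 1 rose and 0 fell, where 5.72% of tested genes rose and 2.88% fell. The median was 0.26, and 2 of 13 changes were below 0.

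The gene that rose was Abca1, the pump that hands cholesterol to lipoprotein particles. It read 379.8, 259 and 295.3 in the fissure, 133.6, 136.1 and 89.9 in nasal and 140.1, 114.3 and 139.7 in temporal cup. All fissure values were above all others. Abca1 changed by 1.21 (SE 0.17, adjusted p = 0.00106). A dim second probe set, at 9.4 to 16.2 in the fissure and 12.5 to 26.6 elsewhere, changed by -0.19, and with the mean of all its probe sets Abca1 changed by 0.31 (adjusted p = 0.0970). Macrophage markers, whose sums are given above, moved with it, and the part of those cells was not tested.

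Among 18 further genes of fatty acid synthesis and elongation, 1 fell and 0 rose, where 2.88% of tested genes fell and 5.72% rose. The gene that fell was the elongase gene Elovl7, on a probe set of the x type. It read 13.1, 15.1 and 11.4 in the fissure, 51.6, 28.2 and 47.8 in nasal and 41.7, 19.7 and 32.5 in temporal cup. Its fissure values lie below the filter level of 15.7 to 17.5, so it entered the test only through the regions where it is high. Its count is no support for a fall in the list. A plain Elovl7 probe set above the filter changed by -0.40. On that probe set the fissure, at 17.1 to 21.8, overlapped nasal (19 to 44.8) and temporal cup (17.6 to 49). Of 17 genes of fatty acid activation and glycerolipid synthesis, 1 fell and 1 rose (median -0.08), where 2.88% of tested genes fell and 5.72% rose. Acsl3, an acyl-CoA synthetase, read 347.8, 280.5 and 374.4 in the fissure, 569.1, 562.6 and 603.8 in nasal and 482.5, 570.8 and 463.9 in temporal cup (change -0.68, SE 0.14, adjusted p = 0.0106), and its 2 other probe sets changed by -0.65 and -0.63. Lpin1, a phosphatidate phosphatase, read 76.7, 56.9 and 84.2 in the fissure, 34.3, 32.1 and 43.5 in nasal and 40.1, 33.3 and 60.4 in temporal cup. Temporal array C lay above fissure array B. Lpin1 changed by 0.65 (SE 0.17, adjusted p = 0.0383), and it passed in 9 of 22 alternatives, among those where it did not being the fits without fissure array A or C.

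Fatty acid oxidation had 2 genes that rose and 0 that fell among 14 tested, with a median of 0.22. Over all tested genes 5.72% rose and 2.88% fell. Cpt1a, which loads fatty acids onto carnitine for entry into mitochondria, read 294.9, 207.9 and 243.7 in the fissure, 139.4, 124.5 and 146.7 in nasal and 138, 127 and 129.5 in temporal cup. It changed by 0.81 (SE 0.14, adjusted p = 0.00387), and its 2 other probe sets by 1.04 and 0.93. Its brain paralog Cpt1c read 212, 152.4 and 258.1 in the fissure, 80.8, 94.8 and 96.2 in nasal and 111.7, 61.7 and 146.8 in temporal cup, with no overlap. Cpt1c changed by 0.97 (SE 0.23, adjusted p = 0.0214), with an adjusted p above 0.05 without fissure array A or C or nasal array A. Whether these lists differ from the 31 genes was not tested.

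**Figure D4:**
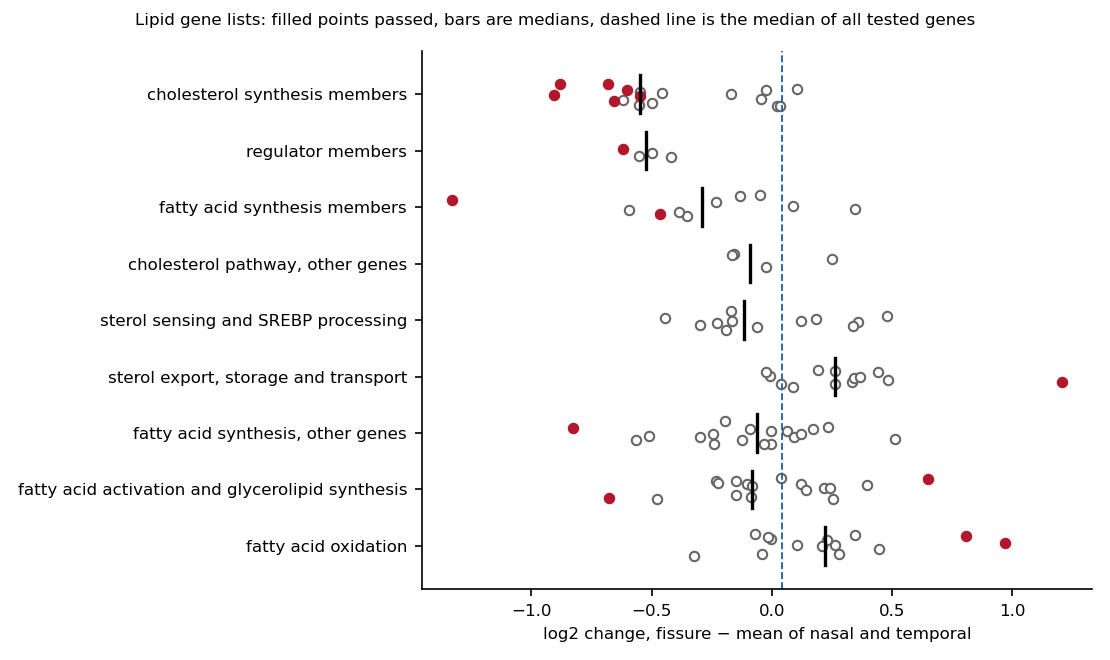
Log2 change of the fissure from the nasal and temporal mean, 1 point per tested gene, in the 3 branches of the 31 genes and 6 further lipid lists. Filled points passed in limma, bars are list medians, and the dashed line is the median of all tested genes, 0.04. The branch medians are -0.55, -0.52 and -0.29.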

How the data were processed

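The authors deposited linear intensities of 45101 probe sets for each of 9 arrays. The summarisation method was not given in the sources used here. The deposited intensities had a mean of 150 on every array after trimming 2% from each end, which shows scaling to 1 level, and no further scaling was applied. Array number limits precision, and no detection calls were used.

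Symbols came from the platform annotation, which can be old. All 31 genes matched the RefSeq table of GRCm38.p6 by gene ID. Of a gene's probe sets with 1 symbol, the brightest on average across all 9 arrays was used. Values became log2(intensity + 16), and genes that exceeded percentile 40 of 3 or more arrays were tested (12770). limma 3.58.1 in R 4.3.3 (lmFit, eBayes) was fitted to all 9 arrays with 1 mean per region and no block, with Benjamini-Hochberg adjustment over all tested genes at 0.05. The fit was also run on simulated data whose noise was independent between arrays. That run does not check the unblocked fit where arrays of a letter deviate together.

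Members and lists were chosen with earlier results of these data known. Values on every array are given for members past the threshold and for the 3 members of each branch with the smallest p. Other genes given array by array (Hmgcs1, Sc5d, Dhcr7, Fasn) were chosen after their values were seen. Of each further lipid list, genes among the 4 with the smallest p may be named.

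Deviations from region means correlated at 0.166 to 0.487 in the 9 pairs of arrays sharing a letter and at -0.438 to 0.218 in the 18 others. All 9 exceeded 0.1, so arrays sharing a letter were taken as matched in the blocked results and in the differences within letters. The main fit left the letter out, so its counts, SEs and adjusted p-values are unpaired. Matching by letter rests on the data, since no label says what a letter marks. Figures used matplotlib 3.10.9.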

Additional observations from a re-analysis of the deposited data

How the results depend on the processing

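Alternatives covered the filter, scaling, pseudocount, probe set summary, variance model, array weights, the letter, the regions fitted, RNA measures and leaving out arrays. For the fissure against both sides of the cup together, 9 of the 31 genes passed. The count was 17 with the replicate block (letter), 19 with array weights (18 lower and 1 higher) and 2 with the poly-A spike fitted, and it ran from 3 to 8 when 1 array was left out. Against nasal cup (6 genes) it was 15 with the block, 17 with array weights, 10 with the mean of all probe sets, 2 with the spike, and 2 to 8 without 1 array. Against temporal cup (3 genes) it was 9 with the block, 18 with array weights, 6 with the mean of all probe sets and with a pseudocount of 64, 5 with the Gapdh ratio, 0 with the spike, and 1 to 3 without 1 array. The cause of these shifts was not tested. The count for nasal against temporal cup stayed at 0 in all 23 alternatives. Idi1 and Scd1 passed in all 22 alternatives of the comparison with both sides, from -0.93 to -0.79 and from -1.56 to -0.91. Sqle passed in 21, all but the spike. Fdps passed in 9, Elovl5 in 10 and Insig1 in 11.

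No gene that passed changed sign. Near 0, in the comparison with both sides, Tm7sf2 became -0.0186 with quantile normalization, -0.00804 with median scaling, -0.0226 with array weights and -0.0502 with the spike. Dhcr7 became -0.00308 with quantile normalization, -0.299 with the Gapdh ratio and -0.171 with the spike. Mvk became -0.0333 and -0.0104 with the Gapdh ratio and the spike, and Fasn -0.254 and -0.326. Mvd became 0.0123 with the mean of all probe sets. With array weights Pmvk, Ebp and Fads2 became 0.128, 0.0714 and 0.0482, and without letter B Ebp, Fads1 and Fads2 became 0.0153, 0.0385 and 0.145. Leaving out 1 array gave ranges of -0.166 to 0.388 for Dhcr7, -0.0931 to 0.434 for Fasn, -0.178 to 0.144 for Pmvk, -0.0414 to 0.132 for Tm7sf2, -0.0685 to 0.0526 for Ebp and -0.205 to 0.147 for Fads2.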
